A study of Mus musculus with 39 samples.

Results

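Subcutaneous adipose tissue of mice fed a high-fat diet (HFC) was compared between late and early time points of 1 feeding study. All 11 HFC arrays of the series were used, of 39 arrays in all. The early group held 5 arrays, Day 1, Day 6, Day 10, Day 14 and Week 0, and the late group held 6, Weeks 3, 6, 9, 12, 15 and 18. Study day was the day number or 14 plus 7 times the week, so Day 14 and Week 0 were both study day 14 and the late arrays ran from study day 35 to 140. The mice were C57BL/6J, an inbred strain that gains weight readily on fatty food, weaned at 3 to 4 weeks of age and fed a diet with 60% of calories from fat and added sucrose. A low-fat control diet (LFC) with 10% of calories from fat gave 10 arrays at the same time points except Day 1, which serve here as the comparison for age, because the late mice had eaten the diet for longer and were also older. Total RNA of each sample was labelled with Cy3 and hybridised to 1 Agilent mouse array, with 1 array per diet and time point. The series' description speaks of 3 biological replicates per diet, whereas 1 array per diet and time point was analysed here, and whether its RNA came from a single mouse or from a pool is not given in the labels. What each level represents is therefore not settled. In late against early, the spread used in the test is that between time points of a group and includes any change within it. In the fits per week it is the scatter about a straight line. In the test between the diets it is that of the HFC and LFC differences between time points of a period.

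White subcutaneous fat stores triglyceride in large adipocytes and lies in a matrix of collagen with endothelial cells, progenitors, macrophages and lymphocytes. It also secretes hormones, among them leptin, which signals the size of the fat store to the brain, and adiponectin. When a fatty diet expands the depot, adipocytes enlarge, the matrix is remodelled, and chemokines such as those encoded by Ccl2 and Ccl7 recruit monocytes that become macrophages. The tissue lies over muscle and holds lymph nodes and, in places, mammary epithelium, so bulk RNA of a dissected pad can carry transcripts of those tissues. In bulk RNA, fewer cells of a type and less RNA per cell cannot be told apart.

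A level is the log2 intensity of a gene's probe minus the log2 of the 75th percentile of its array, so 0 is the brightness at that percentile, and 1 unit is a 2-fold step. Levels were compared between arrays for the same gene and not between genes. Time and scan day were confounded. The 11 arrays were scanned on 11 different days and lay on 11 slides, the early ones 53 to 253 days after the first scan and the late ones 0 to 155 days after it, so that the 4 arrays of Days 1 to 14 were all scanned after every late array. Scan order and time on diet therefore cannot be told apart in HFC tissue. The early arrays had 69.3% to 84.1% of spots well above background and the late arrays 60.2% to 68.4%, and the 75th percentile of intensity was 692.9 to 1243 and 320.5 to 1130. Of the cell type markers, 10 of 10 mature adipocyte markers and 6 of 6 macrophage markers were well above background on every array. So were 5 of 5 endothelial, 6 of 6 progenitor and 3 of 3 red blood cell markers. The same held for 5 of 8 lymphocyte, 4 of 7 skeletal muscle, 2 of 7 epithelial and 1 of 4 liver markers. None of the 4 skin keratins was well above background on all 11 arrays.

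The 3 earliest arrays stood apart from the other 8. On the first principal component, which held 35.6% of the variance over 20374 genes, Day 1 lay at -179.7, Day 6 at -130 and Day 10 at -95.9, and the others lay between -5.8 and 103.8. Skeletal muscle genes were far higher on the same arrays: the mean level of 24 muscle genes was 5.69 on Day 1, 4.02 on Day 6 and 1.75 on Day 10, against -3.26 to -0.58 on the other 8. The mean level of 23 immediate early genes was -0.42, -0.39 and -0.32 on Days 1, 6 and 10 and 3.38 to 4.74 on the other 8. Within the early group, correlations of levels between pairs of arrays over all genes ran from 0.809 to 0.956, within the late group from 0.892 to 0.96, and between the groups from 0.79 to 0.962. The 2 arrays of study day 14, scanned 162 days apart, had 23.3% of genes at least 2-fold apart, and Day 14 and Day 1, scanned on neighbouring days, had 50.7%. Mature adipocyte genes were lowest on Day 1 and Week 15, with means of 1.96 and 1.18 against 2.88 to 5.39 on the others, and liver genes reached 2.94 on Day 14 against -4.98 to -1.16. What part each of these played in the differences given next was not tested.

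**Figure D1:**
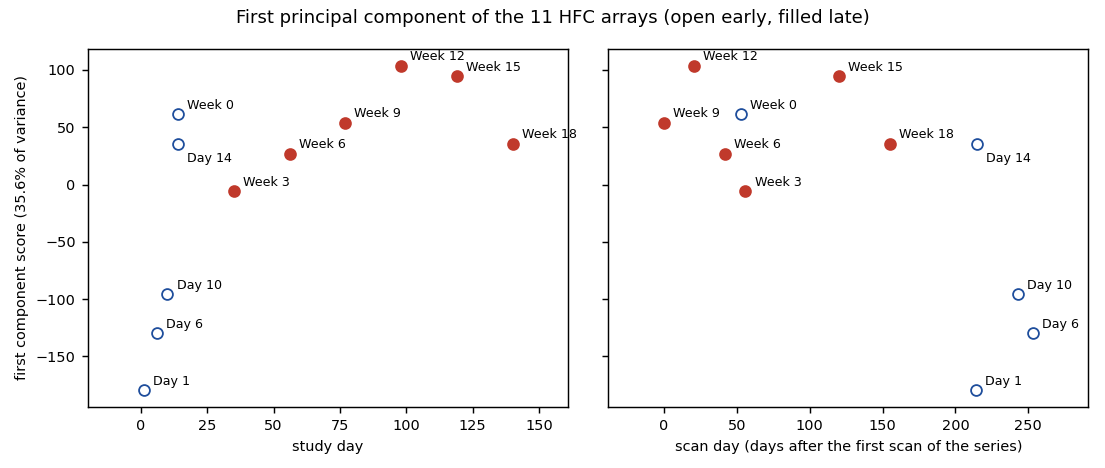
Score of each high-fat array on the first principal component of levels, plotted against study day (left) and against days after the first scan of the series (right), with open circles early and filled circles late. Day 1, Day 6 and Day 10 lie lowest, at -179.7, -130 and -95.9, and were scanned 214, 253 and 243 days after the first scan.

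No gene passed an adjusted p under 0.05 in the comparison of late with early arrays. Of 20774 genes tested with limma, 0% were called after Benjamini-Hochberg adjustment, and the smallest adjusted p was 0.105, for Slc13a3. At an unadjusted p under 0.05 there were 2320 genes (11.2% of those tested), of which 1196 (5.76%) were higher late and 1124 (5.41%) lower. A comparison of the group means without limma's shared spread also gave 0 adjusted and 2163 unadjusted. The groups did not overlap in 174 genes (0.838%). In 101 genes (0.486%) all 6 late arrays lay above all 5 early ones, and in 73 (0.351%) all lay below. A difference of at least 2-fold was measured for 1800 genes (8.66%) upward and 1971 (9.49%) downward, around a median of -0.04 over all genes. In each direction the text names the 12 genes with the smallest p that had a gene symbol, passing over 5 clone or locus names upward and 8 downward with a p as small. Of the genes lower late at an unadjusted p under 0.05, 62.7% were well above background on all 11 arrays, against 76.7% of all genes and 92.6% of those higher late. With week as a number over the same 11 arrays, 11 genes passed the adjusted threshold (0.053%), all of them rising. That count and its direction depended on the settings, with 58 genes by normexp (57 up), 112 with quantile normalization (90 up and 22 down) and 2313 with array weights (1300 up and 1013 down).

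The promoters of 4 genes are shown because the first is that of the gene with the smallest p between the groups, the second that of the gene with the smallest p per week, and the others those of the pair of metallothioneins, which were high together on the late arrays. Each window runs from 250 bases before the start of the gene to 50 after it, from RefSeq in GRCm38.p6, written 5′ to 3′ on the gene's own strand. Capitals mark matches, on either strand, to the metal response core TGCNCNC, to TATAAA, to the AP-1 site TGANTCA, to the E-box CACGTG or to the kappaB site. TGCNCNC and its neighbours can overlap.
Slc13a3 (chr2:165473148-165473447, minus strand): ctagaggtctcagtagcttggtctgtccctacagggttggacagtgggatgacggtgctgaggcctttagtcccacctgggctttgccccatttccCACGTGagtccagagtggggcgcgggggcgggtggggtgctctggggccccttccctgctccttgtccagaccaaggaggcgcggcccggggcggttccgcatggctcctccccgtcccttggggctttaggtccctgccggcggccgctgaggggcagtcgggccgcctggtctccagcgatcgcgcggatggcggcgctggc
Inmt (chr6:55174941-55175240, minus strand): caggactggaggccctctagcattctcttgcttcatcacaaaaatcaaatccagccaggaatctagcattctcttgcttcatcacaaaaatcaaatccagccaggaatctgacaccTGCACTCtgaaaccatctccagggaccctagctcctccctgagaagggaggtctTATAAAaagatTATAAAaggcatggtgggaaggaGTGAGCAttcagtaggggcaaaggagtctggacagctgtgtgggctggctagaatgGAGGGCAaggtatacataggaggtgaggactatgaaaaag
Mt1 (chr8:94178839-94179138, plus strand): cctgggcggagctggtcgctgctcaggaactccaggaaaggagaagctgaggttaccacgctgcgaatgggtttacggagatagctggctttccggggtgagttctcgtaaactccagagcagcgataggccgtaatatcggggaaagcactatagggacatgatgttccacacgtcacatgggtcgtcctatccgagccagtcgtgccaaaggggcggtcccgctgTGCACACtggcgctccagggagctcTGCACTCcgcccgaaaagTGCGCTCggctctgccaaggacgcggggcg
Mt2 (chr8:94172368-94172667, plus strand): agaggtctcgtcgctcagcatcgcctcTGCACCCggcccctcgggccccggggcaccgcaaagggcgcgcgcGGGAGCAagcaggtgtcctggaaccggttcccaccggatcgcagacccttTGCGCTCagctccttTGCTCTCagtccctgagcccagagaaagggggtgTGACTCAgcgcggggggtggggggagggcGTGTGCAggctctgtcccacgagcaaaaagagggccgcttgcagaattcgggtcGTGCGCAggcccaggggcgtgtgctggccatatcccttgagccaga
The Mt1 window held 3 matches to TGCNCNC and the Mt2 window 6, where 51% of 32851 promoters of that length held at least 1 and 7.1% held 3 or more. The Inmt window held 3 TGCNCNC and 2 TATAAA matches, the latter found in 13.6% of promoters. The Slc13a3 window held 1 E-box, found in 7.15% of promoters. The AP-1 match in the Mt2 window is of a kind found in 7.81%. A match is a stretch of letters and not a measured binding site.

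Slc13a3, which encodes the sodium-coupled transporter of dicarboxylates such as succinate, had the smallest p of all genes between late and early. Its levels were -1.73, -1.40, -3.13, -1.75 and -1.78 on Day 1, Day 6, Day 10, Day 14 and Week 0, and on the late arrays -5.56 at the lowest, -5.14 at the median and -4.22 at the highest. Every late array lay below every early one, and 4 of the 6 late arrays were well above background. The late mean was -4.98 ± 0.58 (SD, n = 6) and the early mean -1.96 ± 0.67 (SD, n = 5), a difference of -3.02 ± 0.39 (SE). The adjusted p from limma was 0.105, and leaving out Day 10, the lowest early array, gave -3.32 with an adjusted p of 0.0268. The normexp background correction, which adds an offset and narrows differences of dim spots, gave -1.38. In LFC tissue the same difference was -0.41, and the difference between the diets was -2.56 at an unadjusted limma p of 0.00539. Here and below, the test between the diets leaves out Day 1, so its value is not the HFC difference minus the LFC one. No gene passed adjustment in it, and 2.12% of all genes had an unadjusted p under 0.05.

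Nrk, a kinase gene active in embryonic and placental tissue, had early levels of -0.73, -2.37, -1.94, -3.56 and -3.66 in the same order. The late levels were -8.79 at the lowest, -6.84 at the median and -5.64 at the highest, below every early array, and 2 of 6 were well above background. The difference of -4.41 ± 0.66 had an adjusted p of 0.240 in limma. Normexp gave -1.55, and all probes averaged gave -2.99. When the HFC and LFC arrays were fitted together as 4 groups, Nrk was the 1 gene called, with an adjusted p of 0.0177, and with scan day as a random block it was again the 1 gene called, at -4.56 and an adjusted p of 0.0115. It was lower late in LFC tissue too, by a difference of -2.78. Genes were tested if at least 5 arrays were well above background, and Nrk met this filter through the early group, where it was high. Most of its late HFC levels were not well above background, so its differences are not exact. Its calls in those 2 fits were in part fixed by the filter.

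A further 4 of the 12 genes named downward were well above background on all 5 early arrays and on none of the 6 late ones. Their fold is given as a bound, with late levels below the lowest detected signal of their array raised to it. The words "at least" hold for that signal and for the intensities used, and not for every background correction. These 4 genes met the filter of 5 arrays well above background through the early group alone, where they were high. Their difference and their place among the small p values were in part fixed by it. Agtr2, the type 2 angiotensin receptor, which is prominent in fetal tissue, was at least 6.21-fold lower late, and at least 4.67-fold without Day 1. Capn6, a calpain-like protein of embryonic muscle, was at least 11.9-fold lower, and at least 6.78-fold without Day 1. Epha7, an ephrin receptor, was at least 4.63-fold lower, and at least 3.47-fold without Day 1. With all probes averaged its log2 difference was -1.65, against a bound of -2.21. Hfe2 (hemojuvelin), an iron regulator expressed in skeletal muscle and liver, was at least 60.3-fold lower, with early levels of 4.82, -0.32, -1.44, -3.07 and -5.69. The bound rested on the earliest arrays, being at least 21.5-fold without Day 1 and 6.38-fold without Days 1, 6 and 10. The order of those Hfe2 levels followed the muscle gene mean on Days 1, 6 and 10, which was 5.69, 4.02 and 1.75. None of these 4 genes passed adjustment, with an adjusted p of 0.392 for each in limma. With normexp their log2 differences were -0.52 for Agtr2, -1.49 for Capn6, -0.49 for Epha7 and -3.09 for Hfe2. Each was smaller than its bound, which in log2 was -2.63, -3.57, -2.21 and -5.91 in the same order.

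Marco and Slc40a1 were also among the genes named downward. Marco, a scavenger receptor of macrophages, had early levels of -0.34, 3.31, 2.91, 4.82 and 2.43 and late levels of -1.61 at the lowest, -1.31 at the median and -0.04 at the highest. Day 1 lay among the late arrays and the other 4 early arrays lay above all of them, so the groups overlapped. The difference was -3.65 ± 0.74 in HFC tissue, or -4.39 without Day 1, and -0.79 in LFC tissue. Without Day 1 the diets differed by -3.60 at an unadjusted limma p of 0.00634. Slc40a1 (ferroportin), the cellular exporter of iron, had a difference of -2.34 ± 0.49. Its early levels were 0.41, 0.22, 0.99, 0.04 and -1.02 and its late levels -3.11 at the lowest, -2.52 at the median and -0.66 at the highest, with Week 3 above Week 0. Parp1, a sensor of DNA breaks, differed by -1.62, and by -0.98 without Days 1, 6 and 10, and its groups overlapped. Mmd2, Ttc30a2 and Gtpbp10 differed by -1.74, -1.73 and -1.51, and by -0.63, -0.41 and -0.33 with normexp, and were dim on both sides.

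Ptx3 was among the 12 genes named upward. It encodes a long pentraxin induced by interleukin 1 and tumor necrosis factor. Its early levels were -0.06, -2.66, -0.58, 0.80 and 0.58, and its late levels were 2.30 at the lowest, 3.99 at the median and 5.20 at the highest. No late array overlapped the early ones, among which Day 6 was the lowest. The difference of 4.2 ± 0.69 had an adjusted p of 0.263 in limma, and without Days 1, 6 and 10 it was 3.13.

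Ccl7 and Ccl2, which encode monocyte chemokines, had higher late means, with an adjusted p of 0.392 for each in limma. Ccl7 had early levels of -2.55, -0.37, -1.38, 2.42 and 2.28 and late levels of 3.27 at the lowest, 5.02 at the median and 5.88 at the highest. Ccl2 had early levels of -1.11, 0.96, 0.19, 4.58 and 3.82 and late levels of 4.96 at the lowest, 5.70 at the median and 7.35 at the highest, with 2 late spots saturated. In both genes Day 14 and Week 0 lay close below the late arrays while the 3 earliest arrays lay far below. The differences of 4.71 ± 0.92 and 4.2 ± 0.95 shrank to 2.44 and 1.69 without Days 1, 6 and 10. In LFC tissue they were 1.55 and 0.52.

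Mt1, Bach1, Irs2, Itpkc, Creb3l2 and Trib1 were also among the genes named upward. Mt1, a metallothionein that binds zinc and copper, had early levels of 0.83, 3.64, 1.89, 4.02 and 4.75 and late levels of 5.32 at the lowest, 6.11 at the median and 7.19 at the highest, with 3 of 6 late spots saturated. Mt2, which lies next to it, was at 1.14 to 5.24 early and saturated on all 6 late arrays, where only a lower bound of its level can be read. The measured difference of Mt2 was 3.15, and 1.36 without Days 1, 6 and 10, and that of Mt1 was 3.19 and 1.83. Bach1, a haem-regulated repressor, had early levels of -1.60, -0.91, -1.26, -0.71 and 0.53 and late levels of 0.94 at the lowest, 1.63 at the median and 2.10 at the highest. Its difference was 2.44 ± 0.39 with an adjusted p of 0.263. Irs2, an adaptor of the insulin receptor, was at 1.46 to 3.36 early and 3.89 to 4.54 late, a difference of 1.70. Itpkc, an inositol trisphosphate kinase, differed by 2.48 and Creb3l2, a membrane-bound transcription factor, by 1.58, or 0.86 without Days 1, 6 and 10. Trib1, a pseudokinase that directs proteins to degradation, differed by 1.93 in HFC, or 1.26 without those arrays, and by -0.37 in LFC tissue, and the diets differed by 2.29 at an unadjusted p of 0.0102. None of these passed adjustment.

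**Figure D2:**
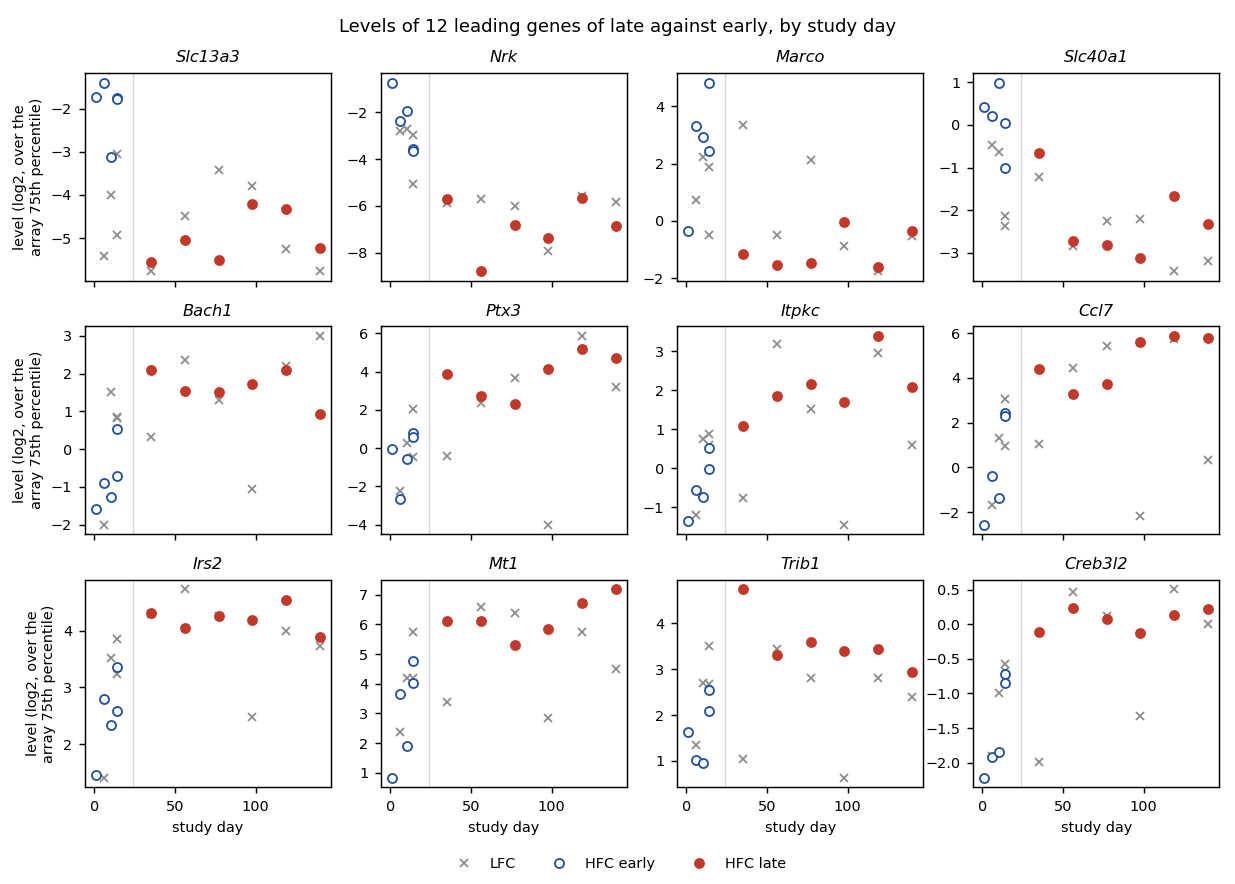
Levels (log2 over the array's 75th percentile) by study day of 12 genes with a small p between late and early, on high-fat early arrays (open circles), high-fat late arrays (filled circles) and low-fat arrays (crosses). Slc13a3 lies at -3.13 to -1.40 early and -5.56 to -4.22 late, and Ptx3 at -2.66 to 0.80 early and 2.30 to 5.20 late.

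Of the 11 genes that rose per week at an adjusted p under 0.05, Inmt, an indolethylamine N-methyltransferase, had the smallest p. Its levels were -1.03, 1.06, -0.81, 0.77 and 1.11 early and 1.89, 2.23, 2.86, 4.26, 5.19 and 5.04 from Week 3 to Week 18, so that no late array overlapped the early ones. It rose by 0.29 ± 0.03 (SE) per week with an adjusted limma p of 0.0206. In LFC tissue Inmt was also higher late, by 3.66 with an adjusted p of 0.0311, and the diets differed by -0.61 at an unadjusted p of 0.558.

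Of the 11 genes, 4 encode secreted growth factors, chemokines or peptides. Csf2, which encodes the growth factor GM-CSF, rose by 0.41 ± 0.05 per week with an adjusted p of 0.0261 in limma. Its levels were -5.89, -7.91, -6.80, -3.41 and -4.02 early, 3 of them well above background, and -4.96, -3.00, -1.01, 1.03, 0.25 and 1.34 late. Week 3 lay among the early arrays and the last 3 arrays were the highest. Cxcl5, a neutrophil chemokine, rose by 0.35 ± 0.05 per week (adjusted p 0.0289), from levels well above background on 1 of 5 early arrays to -1.58, -1.08 and -1.51 on Weeks 12, 15 and 18. With normexp the slopes of Csf2 and Cxcl5 were 0.24 and 0.13, and that of Cxcl5 did not pass adjustment. Cxcl5 met the filter of 5 arrays through the late group, where it was high. Its early levels came mostly from dim spots, so its slope is not exact. Its place among the called genes was in part fixed by the filter. Ccl11 (eotaxin), which attracts eosinophils, rose by 0.22 ± 0.03 per week from -0.87 to 1.41 early to 3.84, 4.5 and 3.84 on the last 3 arrays. Nmb, the bombesin-like peptide neuromedin B, rose by 0.21 ± 0.03 per week, and its early levels were -1.04 to 0.23.

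Timp1 and Plau, which act on matrix and plasminogen, were also among the 11. Timp1, a secreted inhibitor of metalloproteinases, rose by 0.19 ± 0.02 per week (adjusted p 0.0261). Its levels were -1.11, -0.74, -0.47, 0.37 and 0.45 early and 0.99, 1.27, 1.40, 1.99, 3.25 and 2.93 late, with no overlap. Plau, the urokinase plasminogen activator, rose by 0.17 ± 0.02 per week (adjusted p 0.0289) from -2.78 to -1.35 early to -1.20 to 1.20 late. Plau had the only difference between the diets at an unadjusted p under 0.05 among the 11 genes, 1.64 with a p of 0.0337. Pla1a, a phospholipase that cleaves phosphatidylserine, rose by 0.22 ± 0.03 per week, and Ramp3, a partner of the adrenomedullin receptor, by 0.25 ± 0.03. Arhgap22, a regulator of Rac, rose by 0.16 ± 0.02 and Camk2n1, an inhibitor of a calmodulin kinase, by 0.14 ± 0.02. Ccl11, Nmb and Camk2n1 were added to the named genes after their values were seen.

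In LFC tissue the late mean was above the early mean for all 11 of these genes, against 49% of all genes, and 1, Inmt, passed adjustment. The count of 11 depended on single arrays. It fell to 0 when Week 9, 12, 15 or 18 was left out, and was 1 without Day 6 or without Day 10, 4 without Day 1, 30 with Week 0 left out, 42 without Week 6 and 459 without Day 14. Without Days 1, 6 and 10 together, which left 8 arrays, it was 0, and the 11 slopes ran from 0.13 to 0.33 per week against 0.14 to 0.41 over all 11 arrays.

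**Figure D3:**
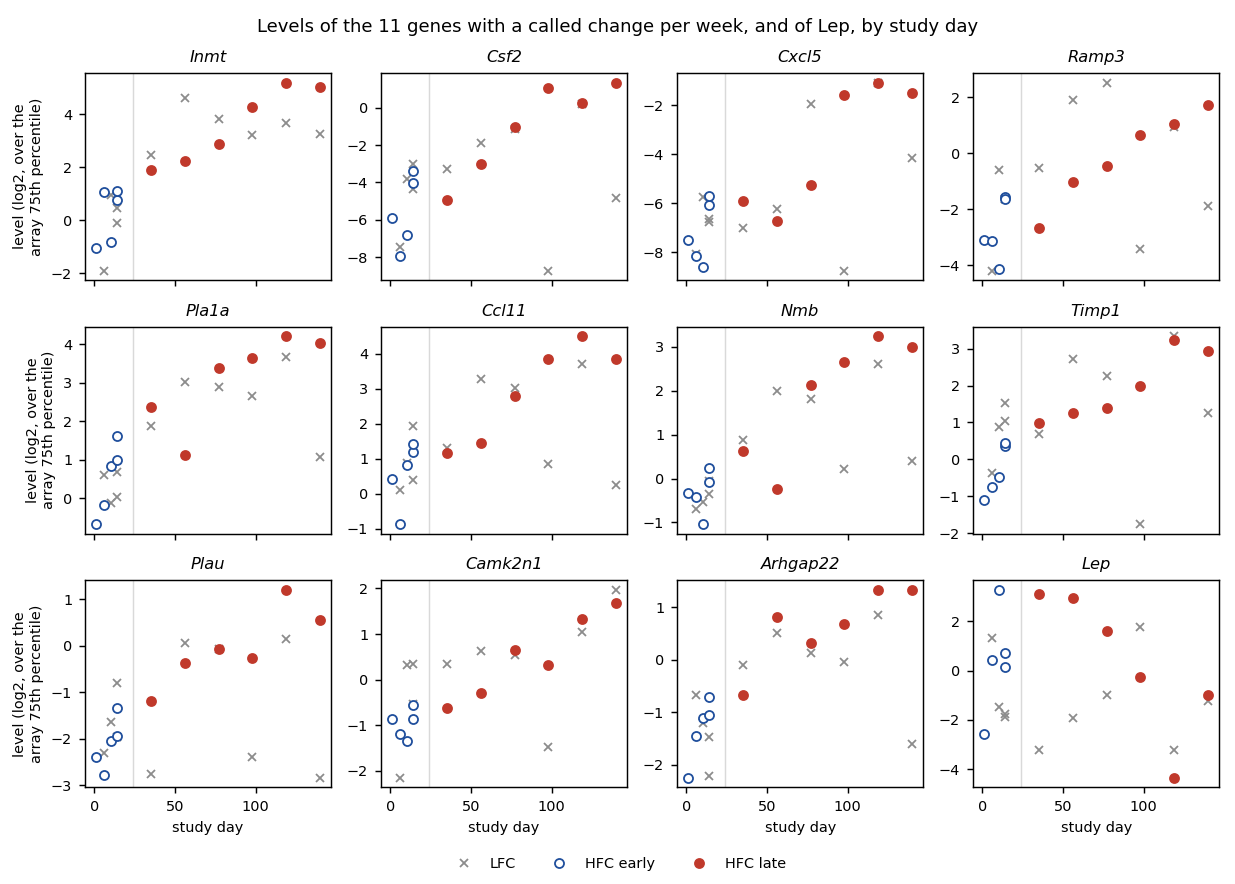
Levels (log2 over the array's 75th percentile) by study day of the 11 genes with a called change per week and of Lep, on high-fat early (open circles), high-fat late (filled circles) and low-fat arrays (crosses). Inmt climbs from -1.03 on Day 1 to 5.04 on Week 18, and Lep goes from 3.09 on Week 3 to -4.35 on Week 15 and -0.98 on Week 18.

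Among the late arrays alone, Igj, Igh and Ccr7 had the smallest p values upward. Igj, the chain that joins immunoglobulin polymers, was at -1.42, 0.19, 1.21, 2.35, 4.35 and 4.64 from Week 3 to Week 18, a slope of 0.42 per week (unadjusted p 1.031e-05, adjusted p 0.114 in limma). No gene passed adjustment within late, and 11.6% of genes had a slope upward and 6.25% downward at an unadjusted p under 0.05. With normexp 409 genes passed, 256 upward and 153 downward, Igj, Igh, Ccr7 and Fam13a among them. Igh, an immunoglobulin heavy chain, had a slope of 0.30 and Ccr7, the receptor that guides lymphocytes to lymph nodes, one of 0.40. The mean of 20 B and T lymphocyte genes was -1.0 and -0.99 on Weeks 15 and 18 and -5.08 to -2.56 on the other 9 arrays. Downward, the smallest p values were those of P2rx5, an ATP-gated channel, with a slope of -0.31 per week, Sgcd, delta-sarcoglycan, with -0.27, and Fam13a with -0.32. For P2rx5, 3 of the 6 late arrays were well above background, and with normexp its slope was -0.046 and that of Sgcd -0.14. Lep had a late slope of -0.42 per week at an unadjusted p of 0.00771 and Mest, an imprinted gene that tracks expansion of fat, -0.26 at 0.00136, while the mature adipocyte mean on the same arrays went from 5.06 on Week 3 through 5.04, 4.67 and 2.88 to 1.18 on Week 15 and 3.15 on Week 18.

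The adipokines and lipid enzymes showed small mean differences against wide spreads. Lep was at -2.57, 0.43, 3.28, 0.71 and 0.16 early and 3.09, 2.96, 1.62, -0.28, -4.35 and -0.98 late, so the late arrays spanned the early ones, with a difference of -0.06 ± 1.35. Adipoq (adiponectin) differed by 0.04 ± 1.08, with 2 saturated spots in each group, and was lowest on Week 15 (1.12) and Day 1 (1.75). Fasn, fatty acid synthase, differed by -0.58, or -1.10 with all probes averaged, and was saturated on 2 late and 3 early arrays. Scd1, the main desaturase, differed by -0.31, or -1.14 without Day 1 and 0.39 without Week 15, with 2 saturated spots in each group. Fasn was at -0.15 without Week 15. Mest differed by 0.16 in HFC and -1.72 in LFC tissue. Sfrp5, a secreted Wnt inhibitor of fat cells, differed by 0.30 in HFC and -2.05 in LFC tissue, and the diets differed by 2.51 at an unadjusted p of 0.00495. Dlk1 and Igf2, growth genes of progenitors and young tissue, differed by -1.28 and -1.55, with Day 1 the highest array in both (0.36 alongside 0.30 on Week 12 for Dlk1, and 5.67 for Igf2). Without Day 1 they were at -0.87 and -0.73. Mki67, a marker of dividing cells, differed by 0.61, or -0.43 without Day 1, its lowest array at -3.28. Xist was well above background on no HFC array.

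Of 15 thermogenic genes tested, 4 were lower late at an unadjusted p under 0.05 in HFC tissue (5.41% of all genes) and 0 higher, and 1 was lower in LFC tissue (1.9%). Ucp1, the uncoupling protein of brown and beige fat, was at 2.05, 6.48, 2.59, -2.59 and 0.00 early and 3.37, -3.81, -3.70, -1.48, -2.90 and -1.74 late, so that Week 3 stood above the other late arrays. Its difference was -3.41 ± 1.59 in HFC and -3.57 in LFC tissue, and the HFC value was -2.22 without Day 6 and -0.42 without Days 1, 6 and 10. The median of the list was -1.85 against -0.04 over all genes. The mean of the list was 0.90, 2.61 and 1.21 on Days 1, 6 and 10, the arrays with high muscle genes, and 0.61 on Week 3, against -2.40 to -1.27 on the others.

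Of 39 oxidative phosphorylation genes, 36 had a lower late mean, 9 of them at an unadjusted p under 0.05 (5.41% of all genes), with a median of -0.85 in HFC and -0.41 in LFC tissue. Sdhb, a subunit of succinate dehydrogenase, was at 6.04, 5.79, 4.76, 2.40 and 2.32 early and 3.83, 3.15, 2.45, 1.63, 1.85 and 1.79 late, with Days 1, 6 and 10 the highest of all. Its difference was -1.81 and turned to 0.09 without those 3 arrays, and that of Sdha, another subunit, went from -1.71 to 0.12. Ndufv2, a subunit of complex I, differed by -1.79, or -0.46 without them. Of 20 fatty acid oxidation genes, 5 were lower (5.41% of all genes) and 0 higher at an unadjusted p under 0.05, with a median of -1.24. Slc25a20, the carnitine-acylcarnitine carrier, differed by -2.10 in HFC and -0.23 in LFC tissue, and Acads and Hadha, which act in beta-oxidation, by -1.81 and -1.55. The 3 values were -1.07, -0.46 and -0.15 without Days 1, 6 and 10. Per week, 20 of the 39 and 15 of the 20 genes of these lists had a slope downward at an unadjusted p under 0.05, against 8.71% of all genes. Of 24 muscle genes, 18 were lower at an unadjusted p under 0.05 (5.41% of all genes), with a median of -3.80 in HFC and -1.15 in LFC tissue. Mylpf, the fast myosin light chain, was at 6.30, 6.17, 4.41, -1.71 and 0.45 early and -2.92 to 0.59 late. The difference of Mylpf was -4.54 ± 1.41 over all arrays and -0.78 without Days 1, 6 and 10. That of Casq1, the calcium store protein of muscle, went from -4.92 to -1.09. The part of the muscle signal in the mitochondrial differences was not tested.

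Immediate early genes, transcription factors that a stimulus induces within minutes, were higher late in 23 of 23 members at an unadjusted p under 0.05, against 5.76% of all genes, and 0 passed adjustment. The median difference was 2.80 in HFC and 0.36 in LFC tissue. Fos was at -2.75, -2.74, -3.19, 4.69 and 5.13 early and 2.88 to 5.89 late, so that Day 14 and Week 0 lay among the late arrays and Days 1, 6 and 10 far below. Its difference was 4.59 ± 1.57 over all arrays and -0.09 without those 3. Fosb, Junb, Klf6 and Fosl1 differed by 4.74, 3.52, 2.22 and 3.10, and by 0.99, 0.80, 0.82 and 1.75 without those 3 arrays. Junb was saturated on 5 of 6 late and 2 of 5 early arrays and Klf6 on 2 late arrays, so their differences are not exact. In LFC tissue the list mean was -0.51 on Day 6 and -0.37 on Week 12 and 2.99 to 4.46 on the other 8 arrays, so low arrays lay in both of its groups.

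Of 26 inflammatory signals, 15 were higher at an unadjusted p under 0.05 (5.76% of all genes) and 0 lower, with a median of 2.96 in HFC and 0.99 in LFC tissue. Cxcl1, a neutrophil chemokine, was at -4.38, -6.09, -5.44, 3.40 and 3.44 early and 3.17 to 6.51 late, with Week 3 below Day 14 and Week 0, and differed by 7.07 ± 1.78. Socs3, an inhibitor of cytokine signalling, differed by 3.65. Cxcl1 was saturated on 2 late arrays and Socs3 on 4 late and 2 early arrays. The differences were 1.84 for Cxcl1 and 0.57 for Socs3 without Days 1, 6 and 10. The list mean was -3.67, -1.95 and -1.54 on Days 1, 6 and 10 and 0.72 to 2.87 on the other 8, where Day 14 was the highest array. Of 30 macrophage genes, 5 were higher and 0 lower at an unadjusted p under 0.05 (5.76% and 5.41% of all genes), with a median of 0.69 in HFC and 0.64 in LFC tissue, where 10 were higher (2.44%). Gpnmb, a glycoprotein of lipid-laden macrophages, differed by 3.24 ± 0.79, Trem2, a lipid receptor of those cells, by 2.42, and Cd14, a receptor for endotoxin, by 2.32. Trem2 differed by 0.66 and Cd14 by 0.46 without Days 1, 6 and 10, Cd14 differed by 1.5 without Day 1, and with all probes averaged Gpnmb differed by 1.73. Emr1, which encodes a surface marker of macrophages, differed by -0.45, Cd68 by 1.22 and Itgax by 1.94, with overlap in all 3, and by -1.02, 0.48 and 0.19 without Days 1, 6 and 10. Without Day 1 alone Emr1 was at -0.96. Of 12 genes of MHC class II presentation, 2 were higher (5.76% of all genes), Cd74 by 1.85 and Cd86 by 1.65, with a median of 1.13, and in LFC tissue 6 were higher (2.44% of all genes), with a median of 1.44. Cd74 was saturated on 5 late and 2 early arrays. Cd74 and Cd86 were at 0.69 and -0.15 without Days 1, 6 and 10, and Cd74 was 1.15 without Day 1.

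Heat shock and glucocorticoid response genes were the 2 of 29 lists whose mean did not overlap between the groups. The mean of 13 heat shock genes was 3.47, 3.08, 2.66, 3.42 and 3.73 early and 3.91 to 4.51 late. Hspa1a, an inducible chaperone, was at 1.02, 0.06, -1.26, 4.87 and 5.51 early and 5.70 to 7.07 late, with 2 late spots saturated, and its difference of 4.2 went to 1.05 without Days 1, 6 and 10. Dnajb1, Hsph1 and Hsp90aa1 differed by 1.76, 1.75 and 1.28, with Day 1 missing for Hsph1, whose spot was an outlier there, and Dnajb1 and Hsp90aa1 differed by 0.90 and 0.77 without Days 1, 6 and 10. Of the list, 6 were higher and 0 lower at an unadjusted p under 0.05, against 5.76% and 5.41% of all genes. The mean of 12 glucocorticoid response genes was 1.30, 1.82, 1.57, 2.38 and 2.45 early and 2.84 to 3.44 late, and 4 of the 12 were higher at an unadjusted p under 0.05 (5.76% of all genes), Mt1, Mt2, Cdkn1a (1.75, or 1.05 without Days 1, 6 and 10), an inhibitor of the cell cycle, and Per1 (0.83, or 0.08 without those arrays), a clock gene. Of 18 clock genes 7 were higher and 0 lower, beside the same shares of all genes, with a median of 0.35. Dbp, an output gene of the clock, differed by 1.19 in HFC tissue, or 1.53 without Day 1, and by -0.87 in LFC tissue. The difference between the diets, which leaves out Day 1, was 2.40 at an unadjusted limma p of 0.00134. Nr1d1, a repressor of the clock, differed by 1.40 and -0.43, a difference of 2.0 at 0.00377. In HFC tissue without Days 1, 6 and 10 Dbp was at 0.79 and Nr1d1 at 0.46, and Nr1d1 was at 0.70 with all probes averaged. The hour of dissection is not given in the sources used here.

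**Figure D4:**
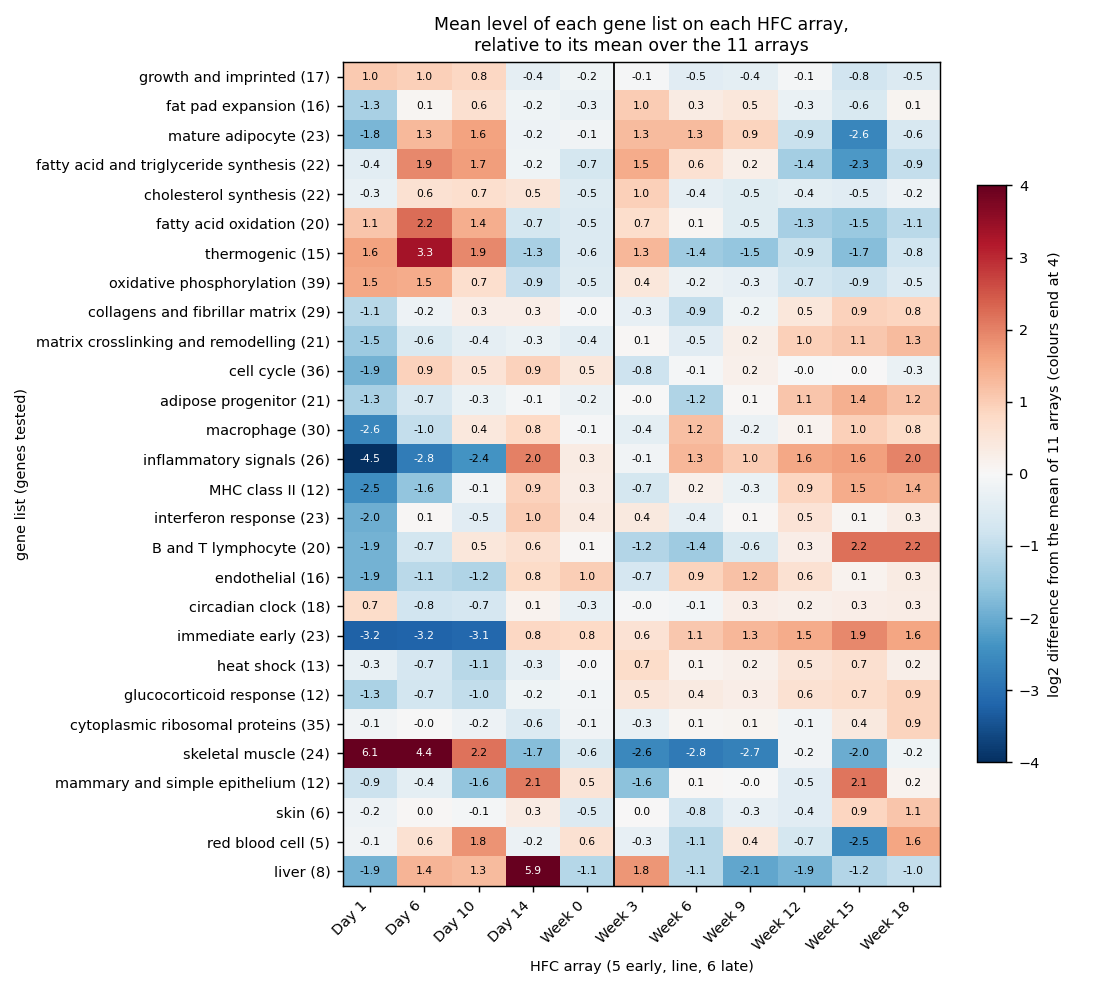
Each cell gives a gene list's mean level on 1 high-fat array minus its mean over the 11 arrays (log2, red above and blue below), with the early arrays left of the line and the late arrays right of it. Skeletal muscle genes are highest and immediate early genes lowest on Days 1, 6 and 10, where the muscle levels were 5.69, 4.02 and 1.75.

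Of 21 genes of matrix crosslinking and remodelling, 20 had a higher late mean, 5 at an unadjusted p under 0.05 (5.76% of all genes), with a median of 1.03 in HFC and 0.19 in LFC tissue. They included Timp1 (2.27) and Timp3 (1.62), inhibitors of metalloproteinases, Plod2 (1.03), a lysyl hydroxylase, and Adamts2 (1.20), which trims procollagen, and Timp3 was at 0.22 and Plod2 at 0.38 without Days 1, 6 and 10, and Adamts2 at 0.46 with all probes averaged. Per week, 14 of the 21 had a slope upward at an unadjusted p under 0.05, against 12.5% of all genes. Of 29 collagens and fibrillar genes, 4 were higher (5.76% of all genes) and 1 lower (5.41%) between the groups and 13 had a slope upward, while Col1a1 and Col3a1 differed by -0.67 and 0.30 with several saturated spots in both groups. Day 1 was left out for Col1a1, whose spot was an outlier there. Of 21 progenitor genes 6 were higher (5.76% of all genes) and 0 lower, with a median of 0.80, and 13 had a slope upward. F3, tissue factor, was at -0.86, 0.30, 0.28, 0.06 and -0.18 early and 0.81 at the lowest, 1.24 at the median and 2.37 at the highest late, with no overlap and a difference of 1.49. Fmo2, a flavin monooxygenase, differed by 2.06, Gdf10, a BMP family member, by 1.99 and Ly6a, the stem cell antigen Sca1, by 1.05. Fmo2 differed by 1.24, Gdf10 by 0.92 and Ly6a by 0.55 without Days 1, 6 and 10. The progenitor mean was highest on Weeks 12, 15 and 18 (2.11, 2.45 and 2.18), where the mature adipocyte mean was lowest among the late arrays. Of 16 endothelial genes 3 were higher (5.76% of all genes) and 0 lower, with a median of 0.93 in HFC and -0.22 in LFC tissue. The endothelial mean was 1.14, 1.97 and 1.82 on Days 1, 6 and 10, and 3.79 and 4.01 on Day 14 and Week 0 lay within the late range of 2.36 to 4.21. The 3 genes were Flt1, a receptor for vascular endothelial growth factor, Robo4, a guidance receptor of endothelium, and Plvap, at 1.37, 1.21 and 2.09 over all arrays and 0.12, 0.10 and -0.11 without Days 1, 6 and 10. Robo4 was saturated on 3 late and 2 early arrays.

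Of 22 genes of fatty acid and triglyceride synthesis none passed an unadjusted p of 0.05 between the groups, with a median of -0.78 in HFC and -1.09 in LFC tissue, 20 of them below 0, and 10 had a slope per week downward at an unadjusted p under 0.05 (8.71% of all genes). Of 23 mature adipocyte genes none passed, with a median of -0.06. Of 36 cell cycle genes 2 were lower, near the 5.41% of all genes, and 0 higher, while 14 were lower in LFC tissue (1.9% of all genes), with medians of -0.44 and -1.17. The cell cycle mean was lowest on Day 1, at -3.14, while the other early arrays at -0.81 to -0.34 lay above every late array at -2.08 to -1.05. Of 17 growth and imprinted genes 1 was lower at an unadjusted p under 0.05, near the 5.41% of all genes, and 4 were lower in LFC tissue (1.9% of all genes). In HFC tissue it was H19, the imprinted non-coding RNA of growing tissue. It was at 6.43, 2.30, 0.92, -3.03 and -2.68 early and -5.31, -5.95, -5.21, -5.35, -5.31 and -2.58 late, where Week 18 lay above Day 14 and Week 0. The difference was -5.74 ± 1.46, or -4.33 without Day 1 and -2.09 without Days 1, 6 and 10. In LFC tissue H19 differed by -3.24. Of 35 cytoplasmic ribosomal protein genes 2 were higher, near the 5.76% of all genes, and 0 lower, with a median of 0.34, and of 20 lymphocyte genes 2 were higher, with a median of 0.29 in HFC and 1.38 in LFC tissue. Beside these shares of all genes, 3 of 23 interferon response genes were higher and 0 lower, 2 of 22 cholesterol synthesis genes were lower, and 2 of 5 red blood cell genes were lower, with all 5 late means below the early ones. Of 8 liver genes 1 was lower, of 12 epithelial and 6 skin genes 1 was higher and 1 lower in each list, and of 16 fat pad expansion and 4 Y-linked genes none had an unadjusted p under 0.05.

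The same contrast in LFC tissue called 53 genes of 20774 (0.255%), all higher late, and 900 at an unadjusted p under 0.05 (4.33%), 506 of them higher (2.44%) and 394 lower (1.9%). Most were immunoglobulin segments without a gene symbol, and 10 had one, among them Igj, which rose by 4.69 (adjusted p 0.0154), and Igh, which rose by 5.14 (adjusted p 0.0156) in limma. All 53 had a late mean above the early mean in HFC tissue too, 18 of them at an unadjusted p under 0.05, where 47.7% and 5.76% of all genes did so, with a median of 2.40 against 4.12 in LFC. Their early levels in HFC tissue were uneven: Igh was at -4.80, -1.79, -0.42, 4.88 and 2.09, and Day 14 lay within the late range of 2.55 to 7.08. The background correction and single LFC arrays decided that count. It was 0 with normexp, so that Igj, Igh and Inmt were not called there, fell to 0 without the Day 14, the Week 0 or the Week 3 array and to 3 without Day 6, and ran from 10 to 29 when Week 6, 9, 12 or 15 was left out.

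Whether the late difference depended on the diet was tested with limma in the 20 arrays of the 10 time points that had both diets, with the time point as a block. No gene passed adjustment (0%), the smallest adjusted p was 1, and 440 genes (2.12%) had an unadjusted p under 0.05. Of these, 159 (0.765%) were more positive in HFC tissue and 281 (1.35%) more negative. The smallest p downward belonged to Tlr12, a toll-like receptor for profilin, at -3.26 (unadjusted p 0.000102), and upward to Dbp at 2.40. Tlr12 was at -6.32, -4.12, -1.92, -1.95 and -4.57 early and -6.63 to -4.41 late, with Day 1 and Week 0 among the late arrays. Id3, an inhibitor of differentiation factors, differed between the diets by 1.73 and Aph1a, a subunit of gamma-secretase, by 1.30. With normexp Tlr12 was at -1.48 and Aph1a at 0.64. Kbtbd5 and Smtnl1, both genes of skeletal muscle, differed by -2.51 and -2.80, but each was well above background on 1 of 6 late HFC arrays, and with normexp they were at -1.13 and -1.20. Day 1, the array highest in muscle genes, was not part of this test because LFC had no array of that day.

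**Figure D5:**
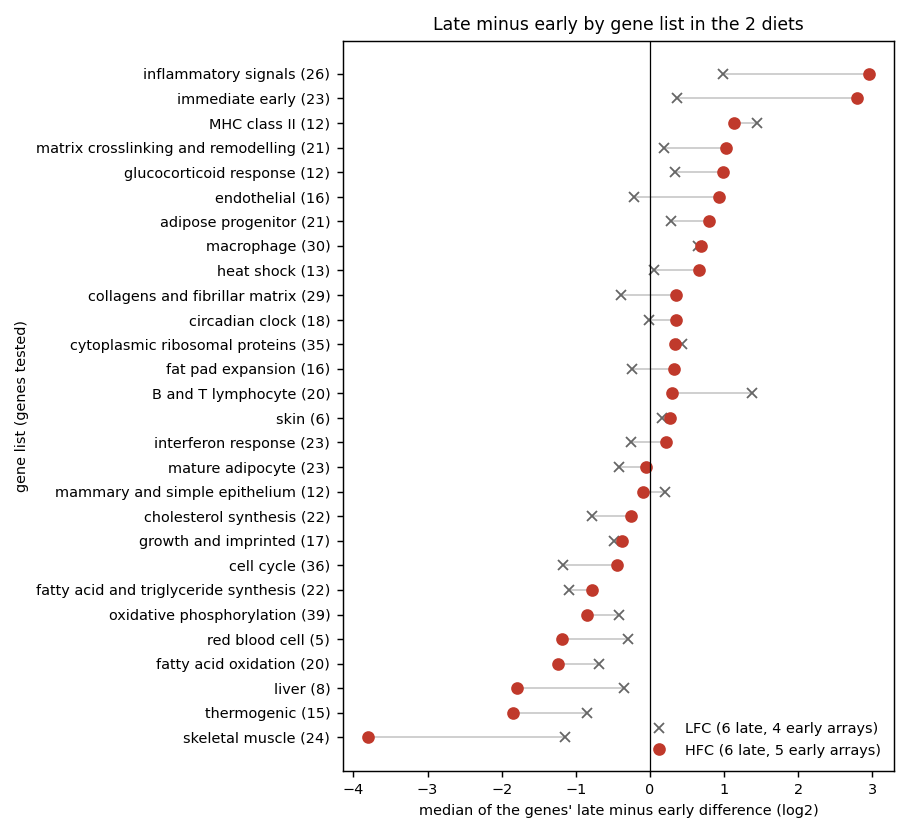
Median late minus early difference (log2) of each gene list in high-fat tissue (circles) and low-fat tissue (crosses), with the number of genes tested beside each name. Immediate early genes lie at 2.80 and 0.36, inflammatory signals at 2.96 and 0.99 and skeletal muscle genes at -3.80 and -1.15.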

How the data were processed

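Each sample was read from its own Agilent scanner file. Per the file headers the deposited values are Cy3 intensity per spot from Feature Extraction 10.5.1.1, while the submitters' processing notes name Agilent Feature Extraction 9.1. The authors' intensity column used here was already background-subtracted and detrended within the array, with no scaling between arrays. A deposited file of log2 ratios that the authors made, of each array against the LFC array of its time point, was not used. Levels were log2 intensities minus the array's log2 75th percentile, with control and outlier spots left out. Spots of a probe were averaged, and each gene was taken by its brightest probe over the HFC and LFC arrays. In every comparison, genes were tested if well above background on at least 5 of the 11 HFC arrays, 20774 of 29411 gene names, so a gene detected only in the early group had to be detected on all its arrays. Array number, not counting depth, limits precision, and 1 array per diet and time point carries no replicate check of a single time point.

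Differences were fitted with limma 3.58.1 (lmFit and eBayes) and statmod 1.5.0 in R 4.3.3, two-sided, with Benjamini-Hochberg adjustment over all genes tested and a threshold of 0.05. The p-values measure only the spread between these arrays. Samples were grouped by diet and time point from the labels. The genes named were, as none passed adjustment, the 12 with the smallest p in each direction between late and early among those with a gene symbol (clone and locus names were passed over), the largest called slopes per week, the 3 smallest p in each direction within late and between the diets, a preset set of markers, and up to 4 of each list. The members, the gene lists and the rule were chosen with earlier results of these data known. A gene well above background on no array of a group was given as a bound against the lowest detected signal. The fits were tested on simulated data with known changes. Alternatives covered background correction, normalization, filters, probes, array weights, scan day, the time point block and each array left out. The array annotation is on mm9, so apart from promoter windows no coordinates are given. Some items that the naming rule picked are not reported here.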

Additional observations from a re-analysis of the deposited data

Results flagged for a closer look

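In 15 of 310 groups of arrays checked, 1 array lay apart from the others of its group by Dixon's criterion, and chance gives about 1 in 20. Of these, 7 were on Week 3. On that array Trib1 was at 4.75 against 2.94 to 3.6 on the other late arrays, Ucp1 at 3.37 against -3.81 to -1.48, Elovl6, a fatty acid elongase, at 2.21 against -0.89 to -0.21, and Plvap, an endothelial gene, at 2.34 against 3.90 to 4.74. The mean of the thermogenic genes there was 0.61 against -2.40 to -1.50, that of cholesterol synthesis 1.00 against -0.45 to -0.18, and that of liver genes -1.16 against -4.98 to -3.88.

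On Day 1, Mki67 was at -3.28 against 1.43 to 2.37 on the other early arrays, the cell cycle mean at -3.14 against -0.81 to -0.34 and the matrix crosslinking and remodelling mean at -0.34 against 0.50 to 0.85. Slc13a3 was at -3.13 on Day 10 against -1.78 to -1.40. The mean of Y-linked genes was -2.23 on Day 6 against -1.44 to -1.21. Among the late arrays, Dlk1 was at 0.30 on Week 12 against -3.6 to -2.70, H19 at -2.58 on Week 18 against -5.95 to -5.21, and Adamts2 at 2.54 on Week 6 against 4.44 to 5.27.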

How the results depend on the processing

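The count of 0 genes between late and early remained 0 under every alternative run except 3, which gave 1: the fit of HFC and LFC arrays as 4 groups and the scan day block (Nrk in both) and leaving out Day 10 (Slc13a3). Leaving out each array in turn gave 0 to 1. The count of 11 per week was 58 with normexp background (57 up), 112 with quantile normalization (90 up), 4 with no filter, 92 for genes well above background on every array (80 up), 44 with an intensity trend and robust prior, 2313 with array weights (1300 up) and 0 to 459 with each array left out. Without Days 1, 6 and 10, an alternative chosen after seeing the data for both the groups and the slope, it was 0, and the late against early count was 0 with 754 genes at an unadjusted p under 0.05. Within late the count was 409 with normexp. The LFC count was 0 with normexp and 0 to 57 with each array left out. The fit of the difference between the diets had each time point as its block. With no replicate block, over 21 arrays, it also gave 0 adjusted and 241 unadjusted calls. Leaving out time points whose diets were scanned on different days gave 0 and 600. The slide block was not run, since only 1 slide held 2 arrays.

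The growth and imprinted mean differed by -0.84, and by -0.57 with normexp, and the ribosomal protein mean by 0.39, and by 0.11 with quantile normalization. Some single genes with small differences turned sign: Lep to 0.12 with normexp, Col3a1 to -0.025 and Fabp4 to -0.031 with quantile normalization, Col1a1 to 0.13 with all probes averaged, and Adipoq to -0.90 with array weights. Without Day 1, Mest was at -0.0019, Adipoq at -0.72 and Mki67 at -0.43, and with Weeks 9 to 18 only, Mest was at -0.61 and Adipoq at -0.70. Over the arrays left out in turn, Mest ran from -0.23 to 0.62, Adipoq ran from -0.72 to 0.78, Lep ran from -0.80 to 0.88, Scd1 ran from -1.14 to 0.39 and Mki67 ran from -0.43 to 0.98. Without Days 1, 6 and 10, Mest was at -0.67, Mki67 at -0.46, Fos at -0.095, Cd86 at -0.15, Plvap at -0.11, Cldn5 at -0.10, Cd36 at -0.23, Me1 at 0.19, Mlxipl at 0.42, Peg3 at 0.23, Slc2a4 at 0.38, Sdha at 0.12, Sdhb at 0.087, Cox7a1 at 0.21 and Fabp3 at 0.42. The cause of these changes was not tested beyond the arrays left out. Signal limits the dim genes: Nrk, Slc13a3 and Cxcl5 were not well above background on every array.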
